A study of Mus musculus with 4 samples.

Results

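Histone acetyltransferases and class I histone deacetylases are the enzymes that place and remove acetyl groups on lysines of histones and of many other proteins, among them p53. The members described here were 9 genes, namely the acetyltransferases Kat2a, Kat2b, Ep300, Crebbp, Kat5 and Kat6a and the deacetylases Hdac1, Hdac2 and Hdac3. They were taken by name from a table of 21090 mouse genes measured by bulk RNA sequencing in 4 libraries, and all 9 were found and passed the filter on low values (mean level of at least 1), which 10871 genes passed.

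Acetylation of histone tails loosens the contact of nucleosomes with DNA and makes a binding site for proteins with a bromodomain, and it goes with active promoters and enhancers. Kat2a (Gcn5) and Kat2b (Pcaf) are interchangeable catalytic subunits of the SAGA and ATAC complexes, Ep300 (p300) and Crebbp (CBP) are enhancer coactivators that bind many transcription factors, and Kat5 (Tip60) and Kat6a (Moz) are MYST family enzymes in complexes of their own. Hdac1 and Hdac2 form the catalytic core of the Sin3, NuRD and CoREST repressor complexes, and Hdac3 works in the NCoR/SMRT complex.

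Each library came from 1 mouse mammary tumor line, grown from a primary mammary tumor that had spread to the lung. The tumor arose in a C57BL/6 mouse carrying an activating Pik3ca allele and a Trp53 point mutant, both switched on by Cre recombinase from the MMTV promoter, which is active mainly in mammary epithelium. All 4 lines share these alleles if they descend from that 1 culture, as the study describes it, although their titles carry 2 cell numbers. The 2 controls were the parental line (titled 307 cell) and a vector control (307 cell vector control). The 2 knockouts had been infected with lentivirus for Cas9 plus a guide to exon 3 of S100a4 (titled 307, the exon 3 guide) or to exon 2 (titled 308, the exon 2 guide), before selection with puromycin. S100a4 encodes a calcium-binding protein of motile cells, and the design asks what its loss changes. The labels give no age or time point and do not say whether a line was 1 clone, and nothing says that the libraries came from separate cultures beyond the 4 lines, so that every p-value measures only the spread between these lines. Crebbp and Kat2b were named by the study from these same libraries, and their direction is not independent evidence.

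The values were RPKM, read numbers divided by gene length and by the size of the library, so that levels may be compared between genes. The totals that scale the RPKM were 22472024 to 31235456 reads per library, of which 65.9% to 67.8% were counted for genes. These read numbers were recovered with gene lengths chosen near the coding length. For Hdac1 the length was 1449 against 1446 coding bases, and for Kat2a 2724 against 2490. Whether reads outside coding sequence were counted was not tested. S100a4 stood at 3576 RPKM for the parental line and 4741 for the vector control. It was 1136 with the exon 3 guide and 1105 with the exon 2 guide, a knockout mean of 26.9% of the control mean. For the knockout lines the study reports truncating mutations in nearly all S100a4 transcripts and loss of the protein on Western blot. The RNA level that remained is therefore not a measure of intact S100a4. All 8 mesenchymal markers (Vim, Fn1 and others) had a mean of at least 1 RPKM against 2 of 7 epithelial markers (Krt8 and Krt18), and Epcam, Cdh1, Krt5, Krt14 and Krt19 lay below 1. The study describes the source tumor as a sarcomatoid adenocarcinoma and reports spindle morphology for cells grown from sarcomatoid tumors. The mesenchymal sum was 4630 RPKM in the parental line and 2192 to 2497 in the other libraries, the epithelial sum was 34.4 RPKM in the vector control and 74.9 to 129.9 in the other libraries, and the adipocyte sum was 90.95 RPKM in the parental line and 2.68 to 5.61 in the other libraries, nearly all of it Fabp4, with Adipoq and Plin1 at 0. The immune sum was 3.38 to 13.2 RPKM, higher in both knockouts than in both controls with 1 of 6 markers, Cd68, at a mean of 1 or more (Cd3e and Emr1 were at 0), and 0 of 4 endothelial markers reached 1 RPKM. The part of these shifts in the members' values was not tested, and in bulk RNA fewer cells of a type and less RNA per cell cannot be told apart.

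Paralogs of the 3 pairs are alike in sequence, so their reads had to be separable before their levels could be set side by side. The coding sequences of Kat2a and Kat2b were identical at 1740 of 2375 aligned bases (73.3%), those of Ep300 and Crebbp at 4949 of 6684 (74.0%) and those of Hdac1 and Hdac2 at 1094 of 1443 (75.8%), with a longest shared run of 19, 29 and 17 bases, each shorter than a read of 75 bases. The most alike stretches of 75 bases within 1 exon of each gene are shown for Kat2a and Kat2b and for Ep300 and Crebbp, with bases that differ within a pair in capitals. They lie on GRCm38 at chr11:100708555-100708629 on the minus strand (Kat2a), chr17:53653148-53653222 on the plus strand (Kat2b), chr15:81648949-81649023 on the plus strand (Ep300) and chr16:4085977-4086051 on the minus strand (Crebbp).
Kat2a: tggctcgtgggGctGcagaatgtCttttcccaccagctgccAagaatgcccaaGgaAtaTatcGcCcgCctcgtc
Kat2b: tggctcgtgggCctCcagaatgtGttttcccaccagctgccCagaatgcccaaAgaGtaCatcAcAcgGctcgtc
Ep300: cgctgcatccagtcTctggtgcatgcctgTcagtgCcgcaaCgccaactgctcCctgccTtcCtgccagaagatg
Crebbp: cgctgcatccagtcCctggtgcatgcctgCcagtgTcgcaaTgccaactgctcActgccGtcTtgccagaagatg
Even there Kat2a and Kat2b differed at 10 bases and Ep300 and Crebbp at 7. A full read of 75 bases from either paralog could thus be told from the other.

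Hdac1 was the exception among the members, because it has a near copy elsewhere in the genome. Of its 1372 coding windows of 75 bases, 1032 (75.2%) also occurred in another annotated gene, foremost in Gm10093, a processed pseudogene at chr17:78491582-78493025 that was identical to the Hdac1 coding sequence at 1435 of 1444 aligned bases (99.4%). One such window is shown with the matching stretches of the pseudogene and of Hdac2, with bases that differ from Hdac1 in capitals. They lie at chr4:129534652-129534726 on the minus strand (Hdac1), chr17:78491631-78491705 on the plus strand (Gm10093) and chr10:36985127-36985201 on the plus strand (Hdac2).
Hdac1: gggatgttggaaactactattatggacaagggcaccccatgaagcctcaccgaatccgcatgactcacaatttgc
Gm10093: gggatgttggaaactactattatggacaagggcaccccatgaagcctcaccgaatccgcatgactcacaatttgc
Hdac2: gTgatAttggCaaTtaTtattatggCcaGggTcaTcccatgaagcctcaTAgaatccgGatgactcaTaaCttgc
Hdac1 and Gm10093 had 0 differences over these 75 bases, while Hdac2 differed at 14. A read from this stretch has no unique place. How such reads were counted is not given in the sources used here, so the level of Hdac1 is uncertain. The Hdac1 level would be too low if such reads were left out, and whether they were was not tested. Kat2b shared 154 of 2365 windows (6.51%) with Kat2b-ps, and the other 7 members shared 0.

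The 4 lines transcribed all 9 enzymes, at levels that differed widely between genes. By the mean over the 4 libraries the order was Hdac3 (76.4 RPKM), Kat2a (61.1), Hdac2 (51.9), Kat5 (21.4), Ep300 (11.5), Kat6a (10.1), Kat2b (6.72), Crebbp (5.72) and Hdac1 (4.45). Hdac3 stood above 87.3% of the tested genes, Kat5 above 58.1% and Hdac1 above 17.8%. The place of Hdac1 is uncertain, because 75.2% of its coding windows also occur in another gene. Between neighbours in this order the ranges over the 4 libraries overlapped, except between Hdac2 and Kat5, whose lowest and highest values were 31.3 and 25.3 RPKM.

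**Figure D1:**
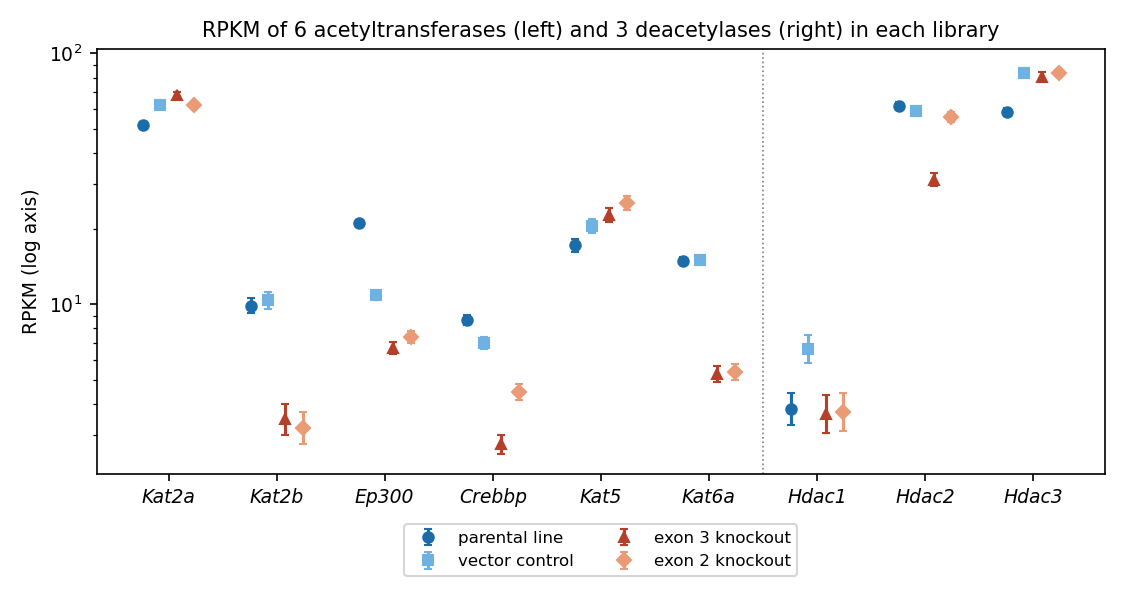
RPKM (log axis) of each member in the parental line, vector control, exon 3 knockout and exon 2 knockout, with 95% Wilson intervals that cover counting error only (often smaller than the point) and acetyltransferases left of the dotted line. Kat2b and Kat6a show 2 high controls and 2 low knockouts with little spread within each group, while Ep300 and Hdac1 differ between the controls.

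Among the acetyltransferases, Kat2b and Kat6a were lower in both knockouts by about the same factor, Ep300 and Crebbp were lower with more spread within a group, and Kat2a and Kat5 were not lower. No member passed the test across genes (limma with Benjamini-Hochberg adjustment, adjusted p under 0.05). It called 2 of the 10871 tested genes (0.0184%) lower, Bgn and Il1rl1, named here after their values were seen, and 0 (0%) higher. The targeted gene, S100a4, did not pass this test either (log2 difference -1.88, SE 0.311, limma adjusted p = 0.0731). Failing it thus does not show that a gene was unchanged. With limma's unadjusted p under 0.05, 4 members (Kat2b, Ep300, Crebbp and Kat6a) were lower and 0 higher, beside 13.8% lower and 5.32% higher over all tested genes, and voom on the reads behind the RPKM called 0 genes after adjustment, where limma called 2. Lower in all 4 pairs of a knockout and a control were 6 members, Kat2b, Ep300, Crebbp, Kat6a, Hdac1 and Hdac2, where 31.2% of tested genes were, and 1 member, Kat5, was higher in all 4 pairs, where 21.9% were. With median ratio scaling 5 were lower and 3 higher, and with quantile normalization 5 and 2. With a correction of each library for GC content and length 4 were lower and 2 higher. The shares of all tested genes under these settings are not given here, so these counts have no background beside them. At least 2-fold lower in all 4 pairs, on the log2(RPKM + 1) scale, were 2 members, Kat2b and Kat6a, against a background of 1.73%, and 0 were 2-fold higher, against 0.267%. With quantile normalization, and with that correction for GC content and length, 0 members were 2-fold lower in all 4 pairs. These counts describe 9 genes chosen with earlier results known. They are not a test of the group.

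Kat2b, the Pcaf acetyltransferase (chr17:53566861-53672720, plus strand), measured 9.86 RPKM for the parental line (757 reads) and 10.4 for the vector control (646 reads), against 3.47 with the exon 3 guide (200 reads) and 3.21 with the exon 2 guide (177 reads). Both knockouts lay below both controls, and their 95% Wilson intervals (3.02 to 3.98 and 2.77 to 3.71 RPKM) lay far from those of the controls (9.19 to 10.6 and 9.59 to 11.2). The mean was 10.1 ± 0.346 RPKM in the controls and 3.34 ± 0.185 in the knockouts (SD, n = 2 each), 33.0% of the controls. On the log2(RPKM + 1) scale, which understates the change of low genes, the difference was -1.36 (SE 0.331), with a limma adjusted p of 0.105 and an unadjusted p of 0.00167.

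Its paralog Kat2a (chr11:100704746-100712465, minus strand) did not share this difference. It measured 51.8 RPKM for the parental line and 62.4 for the vector control, against 68.2 with the exon 3 guide and 62.1 with the exon 2 guide, so that the groups overlapped (log2 difference 0.19, SE 0.296, limma adjusted p = 0.744). Kat2b made up 15.99% and 14.2% of the RPKM of the pair in the controls and 4.84% and 4.91% in the knockouts. Their sum was 67.2 ± 7.80 RPKM in the controls and 68.5 ± 4.54 in the knockouts (SD, n = 2 each), 102% of the control mean. The log2 ratio of Kat2b to Kat2a differed by -1.55 between knockouts and controls, and the groups did not overlap. Without a pseudocount, where library scaling cancels, it was -1.795, while quantile normalization gave -1.16 and the correction for GC content and length -1.13. The two-sided p of an exact permutation was 0.333 (0.889 adjusted over 4 ratios), the smallest that 2 against 2 libraries allow.

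**Figure D2:**
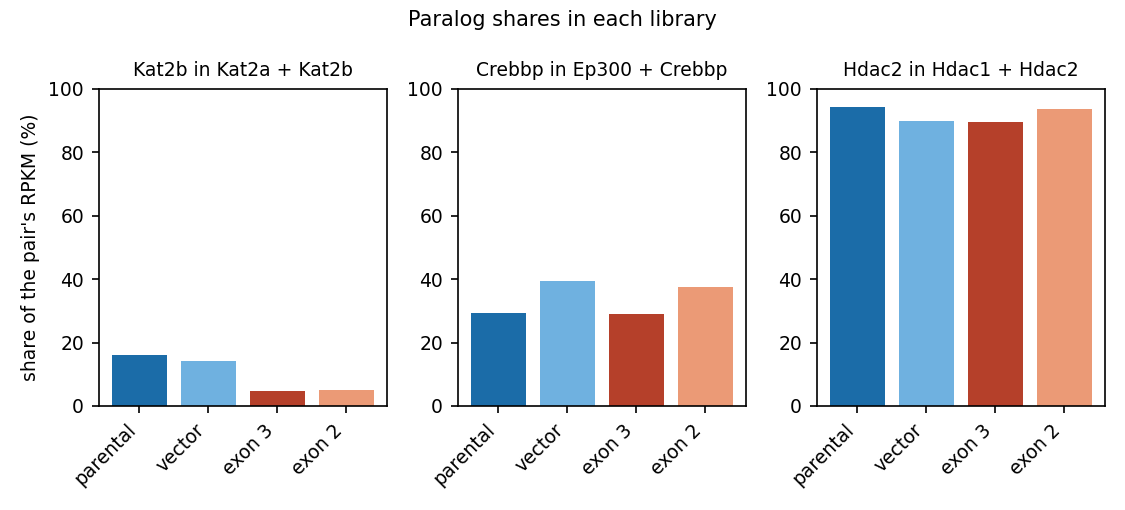
Share of the RPKM of each paralog pair, in percent, held by Kat2b (left), Crebbp (middle) and Hdac2 (right) in each of the 4 libraries. The Kat2b share is 14.2% to 15.99% in the controls and 4.84% to 4.91% in the knockouts, and the other shares overlap between the groups. The Hdac2 share is uncertain because of the sequence that Hdac1 shares with Gm10093.

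Ep300 (chr15:81585351-81652077, plus strand) measured 21 RPKM for the parental line (4768 reads) and 10.9 for the vector control (2004 reads), against 6.69 with the exon 3 guide (1142 reads) and 7.41 with the exon 2 guide (1211 reads). The knockouts were alike and below both controls, but the controls themselves differed by 0.89 on the log2 scale. The mean was 15.9 ± 7.17 RPKM in the controls and 7.05 ± 0.510 in the knockouts (SD, n = 2 each), with a log2 difference of -1.01 (SE 0.368, limma adjusted p = 0.191). Without the vector control the difference was -1.45 and its limma adjusted p 0.0451, and without the parental line it was -0.56. An annotated miRNA gene, Gm23880, overlaps 54 exon bases of Ep300 and is not in the table.

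Crebbp (chr16:4081328-4213997, minus strand), the CBP coactivator, measured 8.65 RPKM for the parental line (1988 reads) and 7.02 for the vector control (1312 reads), against 2.76 with the exon 3 guide (476 reads) and 4.45 with the exon 2 guide (736 reads). The groups did not overlap, and the exon 3 knockout was the lowest of the 4. The mean was 7.84 ± 1.15 RPKM in the controls and 3.60 ± 1.20 in the knockouts (SD, n = 2 each), 46.0% of the controls, with a log2 difference of -0.96 (SE 0.357, limma adjusted p = 0.194).

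As a pair, Ep300 and Crebbp summed to 29.7 RPKM for the parental line and 17.9 for the vector control, against 9.45 with the exon 3 guide and 11.9 with the exon 2 guide, a knockout mean of 44.9% of the control mean. Within the pair the balance did not separate the groups. Crebbp held 29.2% and 39.3% of the pair in the controls and 29.2% and 37.5% in the knockouts (log2 ratio difference 0.05, exact two-sided permutation p = 1).

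Kat6a, the Moz acetyltransferase (chr8:22859535-22943259, plus strand), had the tightest values of the members. It measured 14.8 RPKM for the parental line (2781 reads) and 15.0 for the vector control (2290 reads), against 5.28 with the exon 3 guide (745 reads) and 5.36 with the exon 2 guide (724 reads). Lines of the same group thus differed by at most 0.02 on the log2 scale, against -1.31 or lower for each knockout and control pair. The mean was 14.9 ± 0.134 RPKM in the controls and 5.32 ± 0.0566 in the knockouts (SD, n = 2 each), 35.7% of the controls, with a log2 difference of -1.33 (SE 0.319, limma adjusted p = 0.105, unadjusted p = 0.00146). In limma the variance of each gene is drawn toward that of all genes, so a small spread between 2 lines counts for less. With limma's robust prior, which lessens the pull of outlying genes, the adjusted p was 0.0358 for Kat6a and 0.0415 for Kat2b, in a fit that called 285 genes in place of 2.

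Kat5, the Tip60 acetyltransferase (chr19:5603014-5610237, minus strand), was the 1 member higher in both knockouts than in both controls. It measured 17.2 RPKM for the parental line and 20.5 for the vector control, against 22.7 with the exon 3 guide and 25.3 with the exon 2 guide, a knockout mean of 127% of the control mean. The log2 difference of 0.34 (SE 0.308, limma adjusted p = 0.563) was close to the 0.24 between the 2 controls. Exons of Kat5 overlap 426 bases of exons of Rnaseh2c, which is on the opposite strand and in the table. Whether strand was used in counting is not given in the sources used here. The overlap was taken over all annotated exons, with parts outside coding sequence included. How much of it lay in bases counted for Kat5 was not tested.

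**Figure D3:**
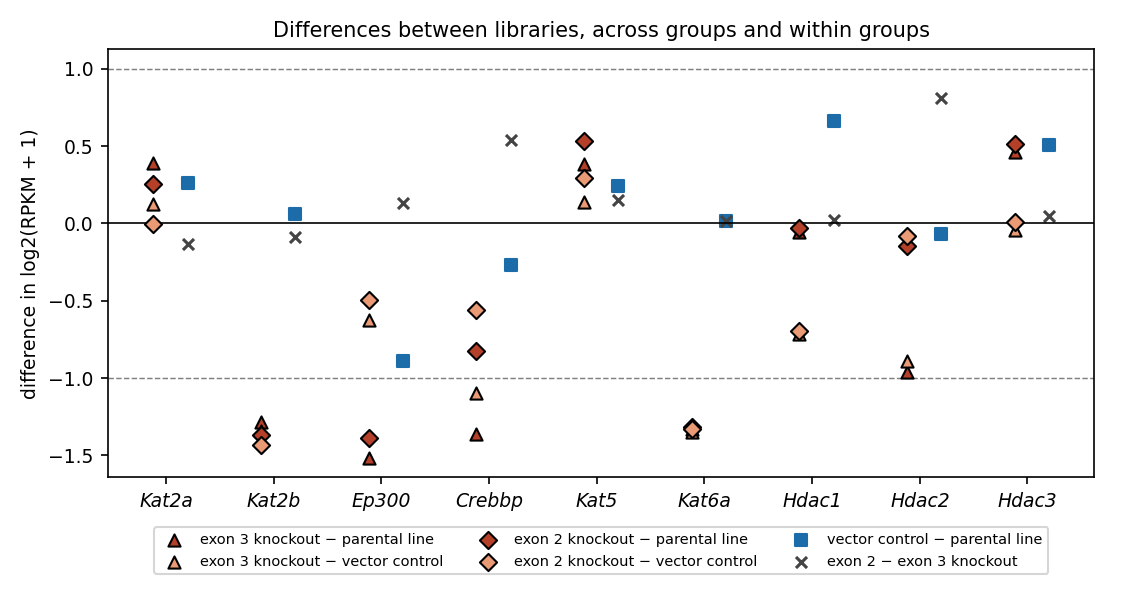
Difference in log2(RPKM + 1) for each member in the 4 pairs of a knockout and a control (triangles and diamonds), from parental line to vector control (squares) and between the exon 2 and exon 3 knockouts (crosses), with dashed lines at a 2-fold difference. For Kat2b and Kat6a all 4 pairs lie below the lower dashed line and the differences within groups lie near 0. For Kat2a, Ep300, Kat5, Hdac1, Hdac2 and Hdac3 a difference within a group is larger in size than the smallest pair difference.

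No deacetylase differed between the groups by more than the larger of its 2 differences within a group. Hdac1 (chr4:129516104-129542713, minus strand) measured 3.82 RPKM for the parental line (173 reads) and 6.63 for the vector control (244 reads), against 3.65 with the exon 3 guide (124 reads) and 3.72 with the exon 2 guide (121 reads). The vector control stood apart, and the parental line lay within the Wilson intervals of both knockouts. The log2 difference was -0.37 (SE 0.368, limma adjusted p = 0.591) and its size is uncertain because of the sequence shared with Gm10093.

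Hdac2 (chr10:36974544-37001889, plus strand) measured 61.8 RPKM for the parental line and 58.9 for the vector control, against 31.3 with the exon 3 guide and 55.6 with the exon 2 guide. Only the exon 3 knockout was far from the other 3 libraries, by 0.81 on the log2 scale from the exon 2 knockout. Over both knockouts the log2 difference was -0.52 (SE 0.338, limma adjusted p = 0.412), and without the exon 3 knockout it was -0.11. Hdac2 held 94.2% and 89.9% of the Hdac1 and Hdac2 RPKM in the controls and 89.6% and 93.7% in the knockouts (log2 ratio difference -0.15, exact two-sided permutation p = 0.667). The size of these shares is uncertain, because 75.2% of the Hdac1 coding windows also occur in another gene.

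Hdac3 (chr18:37935844-37955016, minus strand) measured 58.3 RPKM for the parental line and 83.1 for the vector control, against 80.7 with the exon 3 guide and 83.5 with the exon 2 guide. Here the parental line was the low one, and the vector control lay between the knockouts. The log2 difference was 0.24 (SE 0.307, limma adjusted p = 0.695), and without the parental line it was -0.02.

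The summed acetyltransferase level was 123 RPKM for the parental line and 126 for the vector control, against 109 with the exon 3 guide and 108 with the exon 2 guide, 87.0% of the control mean. Kat2a made up much of this sum, and the other 5 acetyltransferases together summed to 71.5, 63.7, 40.9 and 45.7 RPKM in the same order, 64.1% of the control mean. The summed deacetylase level was 124, 149, 116 and 143 RPKM and overlapped between the groups. The log2 ratio of the sums differed by -0.12 between the groups (exact two-sided permutation p = 0.667).

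Each control and each knockout was a different line, so the differences within a group give the scale on which to read those between groups. The vector control was at least 2-fold lower than the parental line for 5.19% of the tested genes and 2-fold higher for 3.34%. The exon 2 knockout was at least 2-fold lower than the exon 3 knockout for 2.43% and higher for 2.57%. None of the 9 members (0 in each direction) passed 2-fold in these comparisons, which rest on 1 library each and have no test.

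Long and AT-rich genes tended to be lower in the knockouts, and several members are long. Over 10773 tested genes with a coding sequence the log2 change correlated with the GC content of that sequence (Pearson r = 0.46) and with its log2 length (r = -0.28), a description across genes, which are not independent replicates and share the 4 libraries. The coding sequences of Ep300, Crebbp and Kat6a span 7236, 7323 and 6009 bases, against a median of 1386 over the tested genes, while that of Kat2b spans 2439 and that of Kat2a 2490. Coding GC was 42.3% for Hdac2, 49.9% to 52.9% for Kat2b, Hdac1, Hdac3, Kat6a, Ep300 and Crebbp, 54.2% for Kat5 and 57.3% for Kat2a, against a median of 53.1%. With each library corrected for GC content and length, the log2 difference of Kat2b was -1.005, of Kat6a -0.81, of Crebbp -0.51 and of Ep300 -0.44, Kat5 stood at 0.30, and Hdac2 turned from -0.52 to 0.14. The 4 acetyltransferases that were lower stayed below 0, and the limma adjusted p of Kat2b and of Kat6a was 0.309.

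**Figure D4:**
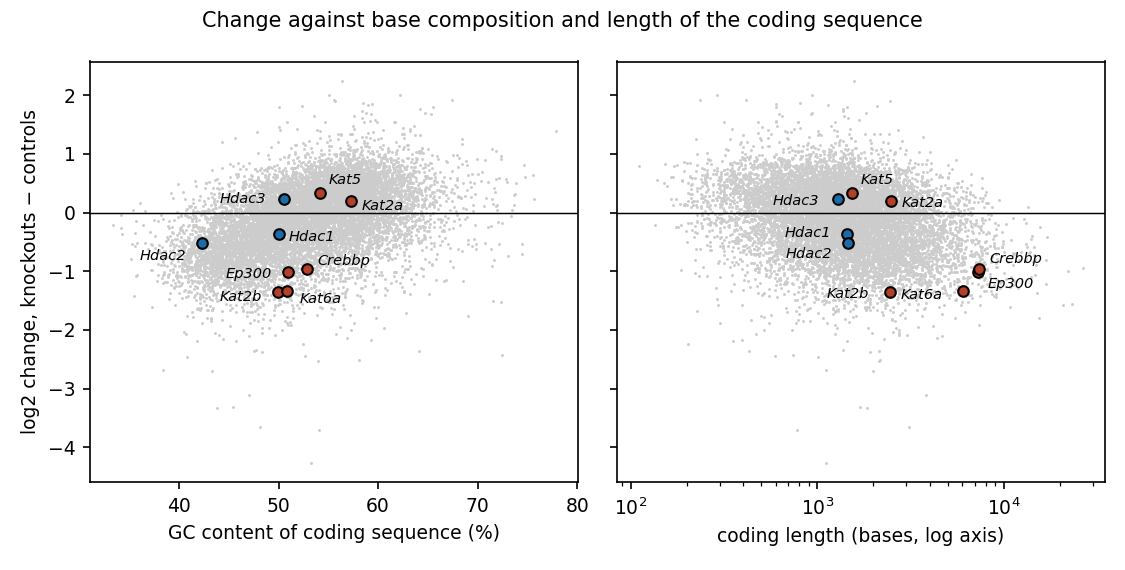
Log2 change (knockouts minus controls) of the tested genes (grey) against the GC content of the coding sequence in percent (left) and the coding length in bases on a log axis (right), with acetyltransferases in red and deacetylases in blue. Grey points tend to rise with GC and fall with length, Ep300, Crebbp and Kat6a lie among the longest genes, and Kat2b lies low at a length shared by many genes.

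By likeness over the 4 libraries, measured as the root mean square difference of log2(RPKM + 1) values centred on their own mean, Kat6a was itself among the 3 genes nearest to Kat2b (0.0427), after Trim33 (0.0327) and Chd9 (0.0389). The genes nearest to Crebbp were L3mbtl3 (0.0150), Idi1 (0.0154) and Ddx6 (0.0407). Idi1 was a low gene, at 2.29 RPKM for the parental line and 1.71 for the vector control. It was 0.3 with the exon 3 guide and 0.836 with the exon 2 guide. At such levels the pseudocount of 1 shrinks the change, so its likeness to Crebbp depends on that scale. With 4 values per gene such likeness is a description only.

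The genes that act with these enzymes are given by counts and medians, since no list was tested as a set. Of 125 listed genes of the acetylation machinery, 121 were tested, and 0 passed the adjusted threshold in limma. With limma's unadjusted p under 0.05, 23 were lower and 3 higher, beside 13.8% lower and 5.32% higher over all tested genes. In all 4 pairs 46 (38.0%) were lower and 26 (21.5%) higher, shares near the 31.2% and 21.9% over all tested genes. The counts of each list are to be read beside these background shares. The median log2 difference of the 121 genes was -0.14, beside -0.08 over all tested genes and -0.52 over the 9 members. After the correction for GC content and length these medians became -0.00200, 0.02 and -0.17. The medians of the 6 acetyltransferases and 3 deacetylases were -0.98 and -0.37.

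Among acetyltransferase partners, the 21 subunits of SAGA and ATAC, which hold Kat2a or Kat2b, had a median log2 difference of -0.01, with 7 lower and 6 higher in all 4 pairs. The 16 Tip60 subunits around Kat5 stood at -0.06, with 4 lower and 3 higher. The 8 subunits of MOZ/MORF, which holds Kat6a, and of the related HBO1 complex stood at a median of -0.48, with 5 lower and 1 higher, and 0 with an unadjusted p under 0.05. That median was -0.12 without the parental line, -0.23 with quantile normalization and -0.31 after the correction for GC content and length. The 10 other acetyltransferases stood at -0.15, with 5 lower and 4 higher, and turned to 0.29 after that correction and to 0.04 among genes with a mean of at least 5 RPKM.

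Among deacetylase partners, the 26 tested subunits of Sin3, NuRD and CoREST stood at a median of -0.06, with 9 lower and 3 higher in all 4 pairs, and the 5 NCoR/SMRT subunits a median of -0.40 (-0.80 without the parental line), with 3 lower and 0 higher. The 14 other deacetylases tested stood at 0.28 (0.13 after the correction), with 1 lower and 5 higher. The 6 genes of acetyl-CoA supply, which provide the acetyl group, had a median of -0.01.

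The bromodomain readers, which bind acetylated lysines, had the largest share of lower genes among these lists in the values as deposited. Of 15 tested, 11 (73.3%) were lower, against 31.2% of all tested genes, and 2 higher in all 4 pairs, with a median of -0.45 that became -0.21 after the correction for GC content and length. At least 2-fold lower in all 4 pairs were 2 of the 121 listed genes tested, Bptf and Zzz3, a share near the 1.73% over all tested genes. Bptf, the reader subunit of the NURF remodelling complex, measured 17.6 RPKM for the parental line and 13.4 for the vector control, against 4.45 with the exon 3 guide and 6.08 with the exon 2 guide (log2 difference -1.40, SE 0.338, limma adjusted p = 0.105). Zzz3, a subunit of ATAC, measured 18.9, 25.3, 6.91 and 8.89 RPKM in the same order (log2 difference -1.37, SE 0.329, limma adjusted p = 0.105). After the correction these differences were -0.81 for Bptf and -0.75 for Zzz3.

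**Figure D5:**
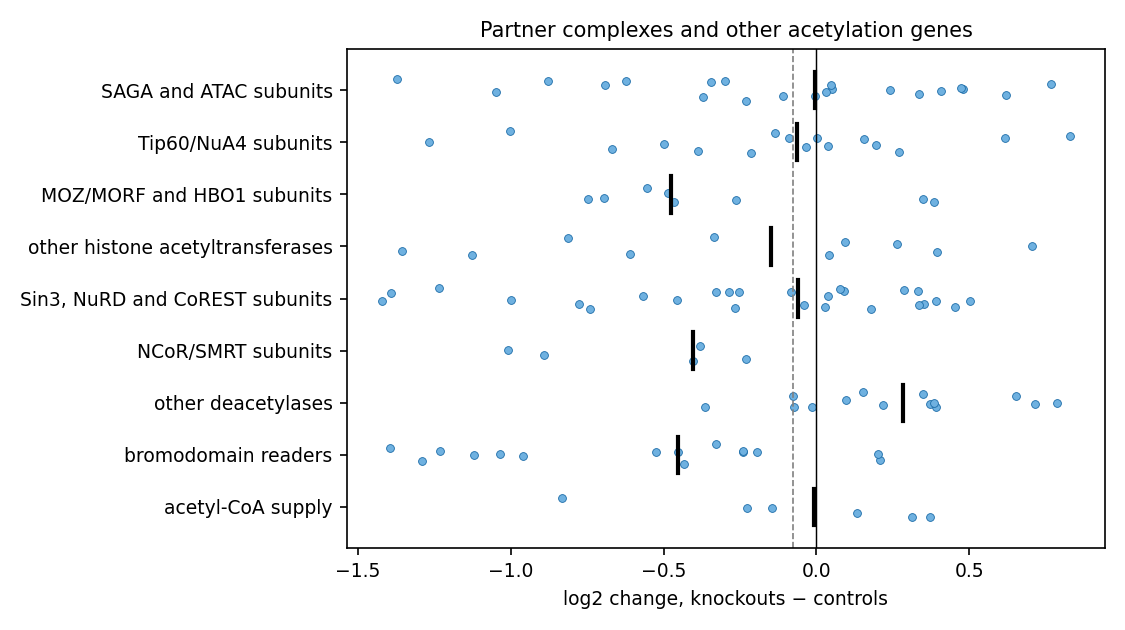
Log2 change (knockouts minus controls) of each tested gene in 9 lists of partner complexes and other acetylation genes (points, spread vertically at random for display), with the median of each list (black bars) and of all tested genes (dashed line, -0.08). With all 4 libraries and no correction, list medians range from -0.48 for MOZ/MORF and HBO1 subunits to 0.28 for other deacetylases, and every list holds genes on both sides of 0 except NCoR/SMRT.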

How the data were processed

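RNA of 4 mouse mammary tumor lines was sequenced as paired reads of 75 bases. The authors deposited RPKM values for 21090 genes with no log2 scale. The submitters' processing notes name CASAVA 1.8, GSNAP and the build GRCm38 without their roles; the counter, gene model and multi-mapping rule are not given in the sources used here. The labels name a stranded total RNA kit and the study's methods a kit without those words. Columns were matched to samples by the identifier in each sample's description, with 0 columns left unmatched. RPKM steps gave whole reads (within 0.001) for 100% of the 15405 genes above 0, and depth was taken from them. Wilson intervals (95%) cover counting error only, since reads without molecular identifiers are not independent molecules.

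Values were analysed as log2(RPKM + 1) over the 10871 genes with a mean of at least 1 RPKM, with limma 3.58.1 (intensity trend) in R 4.3.3, 2 controls against 2 knockouts, with Benjamini-Hochberg adjustment over all tested genes. The fit was tested on simulated data. Ratios were compared by exact permutation. Coding sequences were taken from GENCODE M21 (GRCm38), which matched 20973 symbols, and aligned with Biopython. The members and gene lists were chosen with earlier results of these data known. Named were all members, S100a4, listed partner genes called or at least 2-fold apart in all 4 pairs (at most 10), and the 3 genes nearest in pattern to Kat2b and to Crebbp. Alternatives covered pseudocount, scaling, filter, limma settings, voom on the recovered reads, a correction for GC content and length by loess, and leaving out each library.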

Additional observations from a re-analysis of the deposited data

How the results depend on the processing

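The direction of Kat2b, Kat6a, Ep300, Crebbp, Kat2a, Kat5 and Hdac1 was the same under every alternative run. The log2 difference of Kat2b ranged from -1.60 to -1.005, of Kat6a from -1.49 to -0.81, of Ep300 from -1.45 to -0.44, of Crebbp from -1.23 to -0.51, of Kat2a from 0.06 to 0.32, of Kat5 from 0.22 to 0.46 and of Hdac1 from -0.71 to -0.03 (Hdac1 was not tested at a mean of at least 5 RPKM), with adjusted p from 0.0415 to 0.408 for Kat2b, from 0.0358 to 0.428 for Kat6a, from 0.0451 to 0.640 for Ep300 and from 0.149 to 0.689 for Crebbp. With limma's robust prior Kat2b (-1.36, adjusted p = 0.0415) and Kat6a (-1.33, adjusted p = 0.0358) passed the threshold and 2 members did in all. Leaving out 1 library gave -1.45 (without the vector control, past the threshold) to -0.56 for Ep300, -0.0168 (without the parental line) to 0.49 for Hdac3, and 0 to 1 members past the threshold. Leaving out a library that leaves 1 line in a group assumes that this line varies like the other group.

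The count of genes called, 2 as reported, was 0 with the correction for GC content and length, with median ratio scaling, with no filter and with voom, 1 with a pseudocount of 0.1 or quantile normalization, 32 with a mean of at least 5 RPKM, 285 with the robust prior, and 3 to 788 when 1 library was left out (788 without the parental line, 451 without the vector control, 4 without the exon 3 knockout and 3 without the exon 2 knockout). Quantile normalization moved the median log2 difference of all genes from -0.08 to 0.04. The correction for GC content and length turned Hdac2 to 0.14 and gave a members' median of -0.17. In all pairs it left 4 members lower, 0 of them 2-fold lower, and 2 higher. Quantile normalization also left 0 members 2-fold lower, with 2 higher in all pairs, and median ratio scaling gave 3 higher. Shares over all tested genes are not given for these settings. Leaving out 1 library gave 1 to 3 members higher in all pairs and a members' median of -0.92 (without the exon 2 knockout) to -0.36 (without the exon 3 knockout).

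The log2 ratio of Kat2b to Kat2a, -1.55 as reported, kept its direction and lay between -1.795 (no pseudocount) and -1.13 (the correction for GC content and length), with -1.16 under quantile normalization. The log2 ratio of Crebbp to Ep300 reversed to -0.0679 with the correction, -0.0539 without a pseudocount (added after seeing the data), -0.0410 with a pseudocount of 0.1 and -0.0534 with voom, and lay between -0.27 (without the parental line) and 0.36 (without the vector control). The ratio of Hdac2 to Hdac1 reversed to 0.32 with the correction and lay between -0.54 (without the exon 2 knockout) and 0.25 (without the exon 3 knockout). Its level is uncertain because Hdac1 shares sequence with Gm10093. The ratio of acetyltransferases to deacetylases reversed to 0.0104 with quantile normalization, was -0.34 with the correction for GC content and length, and lay between -0.27 (without the exon 3 knockout) and 0.0418 (without the exon 2 knockout) when 1 library was left out. The cause of these changes was not tested. No paired analysis was made, because each library is a different line and the labels tie no knockout to a particular control. With 1 library per line and 121 to 244 reads, Hdac1 has the least depth of the members.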
